A study of Homo sapiens with 6 samples.

Results

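Among the 53719 rows of the gene count table, 10 are described here: a pair named for the ribosomal RNA (rRNA) transcription unit (RNA28S5 and RNA45S5), a pair of microRNA genes that lie in its 5′ spacer (MIR3648 and MIR3687), and 6 rows whose counts moved with those of RNA28S5 (AC079949.1, UNC45B, AL161626.1, DUSP5P1, ANKRD30BL and HFM1). They were chosen on the values of these same libraries, so their differences between groups and their likeness to RNA28S5 are given as a description and without a test. The cells were of the established embryonic stem cell line H9 and were grown in RSeT, a medium for naive pluripotent cells. In the knockdown group (3 libraries, a, b and c) the cells received a gapmer, an antisense oligonucleotide whose DNA core directs RNase H to cut its target, whose target was alpha satellite RNA (ALR), transcribed from the repeated DNA of centromeres. The control group (3 libraries, a, b and c) received a control gapmer, and RNA was taken from both groups after 48 h. The study asks whether alpha satellite RNA represses rRNA expression. Nothing in the labels says that the libraries of a group came from separate cultures, so p-values measure the spread between these libraries, which may be technical.

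Most rRNA is made by RNA polymerase I in the nucleolus as one long 45S precursor. External and internal transcribed spacers are cut away from it, and the 18S, 5.8S and 28S rRNAs remain and enter the ribosome. The spacers are short-lived, so reads from them follow the young precursor, while reads from 28S follow mostly the stable product. The 5S rRNA is made elsewhere, by RNA polymerase III. The mature rRNAs carry no poly(A) tail, and most library protocols remove or avoid them. The labels do not say whether rRNA was depleted or poly(A) RNA was selected here, so the rRNA rows show what was left after library preparation and not the amount of rRNA in the cell.

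MIR3648 and MIR3687 each have a pair of identical copies on chromosome 21 in GENCODE 29 (GRCh38), all on the plus strand. The MIR3648 copies are at chr21:8208473-8208652 and chr21:8986999-8987178, and those of MIR3687 at chr21:8208844-8208904 and chr21:8987370-8987430. The first copy of each lies inside the 45S unit that RefSeq calls RNA45SN2, which is 13315 bases long. Counted from the start of that unit, MIR3648 spans bases 2486 to 2665 and MIR3687 bases 2857 to 2917, both before 18S (3644 to 5512), 5.8S (6584 to 6740) and 28S (7901 to 12954). In that unit both genes lie in the 5′ external transcribed spacer. The second copies lie in none of the 45S units that RefSeq lists. The rows count sequenced fragments over these genes, which need not be mature microRNAs. MIR3648 is 83.9% and MIR3687 78.7% G or C. The second copy of MIR3687 (GENCODE 29, plus strand) is shown, in lower case, as an example of the base composition that sets the spacer rows apart from AC079949.1, whose sequence is given with its values.
MIR3687-2: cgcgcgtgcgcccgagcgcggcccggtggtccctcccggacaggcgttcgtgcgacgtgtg

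**Figure D1:**
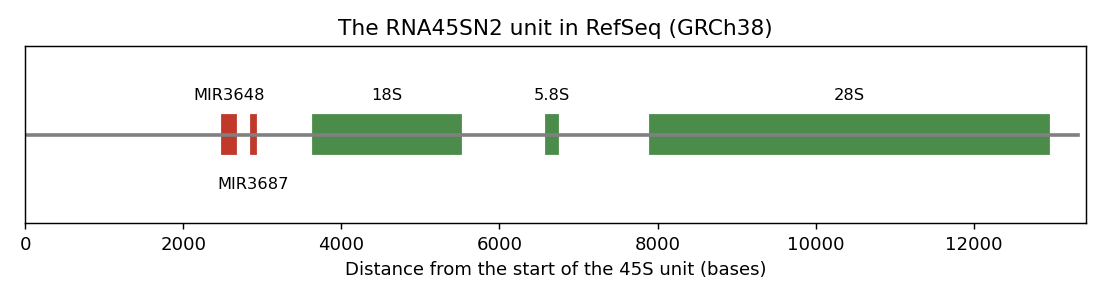
Map of the RNA45SN2 unit in RefSeq (GRCh38), with distance from its start in bases on the horizontal axis. Green boxes are the mature rRNAs and red boxes the spans of MIR3648 and MIR3687, which end at base 2917, before 18S begins at base 3644.

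The row RNA28S5 stood highest in knockdown library a. It had 2330 counts there, 269 in b and 85 in c, against 30, 40 and 94 in control a, b and c. In CPM (counts scaled by the library total to a common library size) this was 84.4, 7.98 and 3.39 for the knockdown, beside 1.04, 1.28 and 2.57 for the control. All 3 knockdown libraries lay above all 3 control libraries, but the 95% exact intervals of knockdown c (2.71 to 4.19) and control c (2.08 to 3.15) overlapped. These intervals cover counting error within a library only and not the spread between libraries. Fragments were not counted by molecular identifiers, so copies of the same molecule may make the intervals too narrow. The group means were 31.9 ± 45.5 and 1.63 ± 0.824 CPM (SD, n = 3), a ratio of 19.6. Without knockdown library a the ratio was 3.49. In bulk RNA, more RNA per cell and a larger share of cells that hold it cannot be told apart.

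RNA45S5, the row named for the 45S precursor, was almost empty. It had 1 count in knockdown a, 1 in knockdown b and 1 in control c, and 0 in the other libraries. A count of 0 allows up to 3 counts, or 0.120 CPM in knockdown c, 0.104 in control a and 0.0957 in control b. It did not pass the filter on low counts, which the other 9 members passed. The lowest count of any of these 9 in any library was 12 (UNC45B in control b, 0.383 CPM). The names of both rows need care. GENCODE 29 holds neither, and the count table gives no coordinates. In RefSeq each name is a synonym of 2 genes, one on chromosome 22 and one unplaced. In table order, RNA28S5 stood between RP6-24A23.3 and RP1-31B8.1, and all 34 of the 50 nearest rows that could be matched to GENCODE 29 were on chromosome X. RNA45S5 stood between AC010970.1 and RNA5-8SP6, with all 38 matched neighbours on chromosome Y. Whether the RNA28S5 row counted the 28S repeats themselves or a 28S-like stretch elsewhere cannot be told from the table. What the RNA45S5 row counted cannot be told either, so its low counts are not read as a level of the 45S precursor. Of 19 rows named for nuclear rRNA, these were the only 2 with any count.

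MIR3648 and MIR3687, called the spacer rows here for the position of their first copies, were lowest in knockdown library a and were among the fullest rows of the table. MIR3648 had 1775 CPM in knockdown a, 4349 in b and 2993 in c, against 4241, 3336 and 5379 in control a, b and c. By count it ranked 21 in knockdown a and between 3 and 9 in the other 5 libraries. Its lowest value was in knockdown a, where RNA28S5 was highest, but knockdown b lay among the control values, so the groups overlapped. The means were 3039 ± 1288 and 4319 ± 1024 CPM (SD, n = 3), a ratio of 0.704, or 0.850 without knockdown a.

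MIR3687 showed the same order. It had 916 CPM in knockdown a, 2233 in b and 1663 in c, beside 2111, 1774 and 2763 in control a, b and c. The means were 1604 ± 660 and 2216 ± 503 CPM (SD, n = 3), a ratio of 0.724, or 0.879 without knockdown a, with overlap again. The 2 rows kept close proportions: MIR3648 had 1.94, 1.95 and 1.80 counts per MIR3687 count in knockdown a, b and c, beside 2.01, 1.88 and 1.95 in the controls. Per base of gene, MIR3687 had 1.47 to 1.64 times the counts of MIR3648. A fragment can reach beyond genes this short, so this is not read as deeper coverage of MIR3687. Together they took 0.269% of all counts in knockdown a and 0.466% to 0.814% in the others. Since each gene has identical copies, how the counts divide among copies is unknown.

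The spacer rows and the RNA28S5 row thus parted most in knockdown library a. The summed CPM of MIR3648 and MIR3687 per CPM of RNA28S5 was 31.9 in knockdown a, 824.5 in b and 1374 in c, against 6105, 4005 and 3168 in control a, b and c. All 3 knockdown libraries lay below all 3 controls in this ratio. That separation rests on RNA28S5, because the spacer rows alone overlapped between groups.

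**Figure D2:**
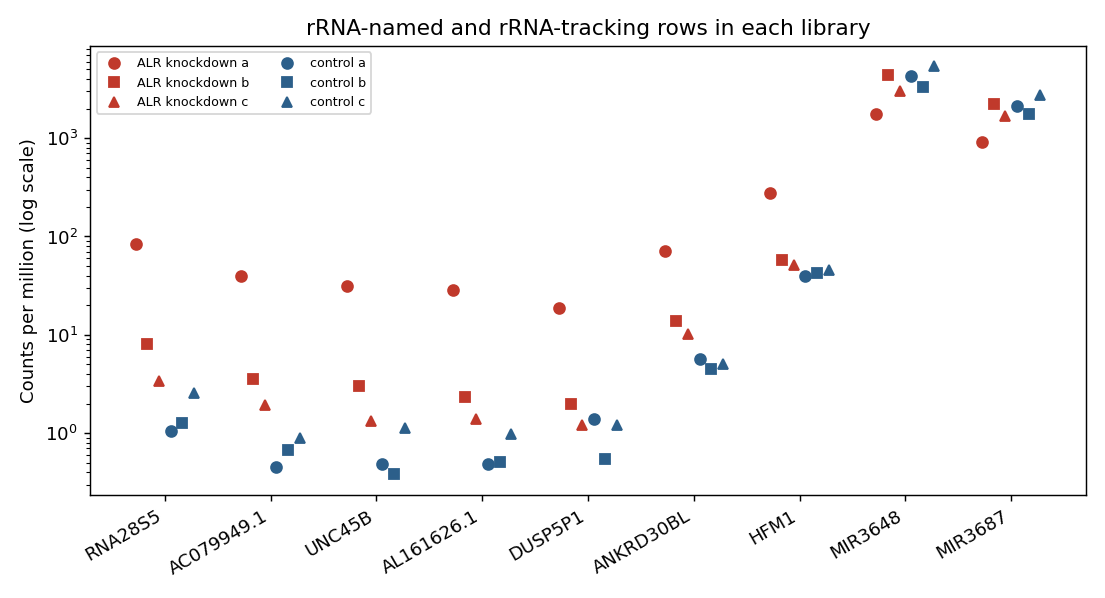
CPM (log scale) of the 9 members that passed the filter, in each of the 6 libraries, with red for ALR knockdown, blue for control and the symbol shape for the letter. Knockdown a, the red circle, is the highest point of RNA28S5 (84.4) and of 6 further rows and the lowest of MIR3648 (1775) and MIR3687 (916).

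AC079949.1, UNC45B and AL161626.1 followed RNA28S5 almost in proportion. AC079949.1 is a long intergenic noncoding RNA at chr12:127145072-127146532 (GENCODE 29, minus strand). It had 1100, 121 and 48 counts in knockdown a, b and c, beside 13, 21 and 33 in control a, b and c. In CPM these were 39.8, 3.59 and 1.91 against 0.451, 0.670 and 0.902, with no overlap. The means were 15.1 ± 21.4 and 0.674 ± 0.226 CPM (SD, n = 3), 22.4 times higher in knockdown and 4.08 times without knockdown a. Per RNA28S5 count it had 0.472, 0.450 and 0.565 counts in knockdown a, b and c, beside 0.433, 0.525 and 0.351 in the controls. Its shorter spliced transcript (242 bases, minus strand, 48.8% G or C) is shown because this row had the largest ratio of knockdown to control of all members, and its base composition is far from that of the spacer rows.
AC079949.1: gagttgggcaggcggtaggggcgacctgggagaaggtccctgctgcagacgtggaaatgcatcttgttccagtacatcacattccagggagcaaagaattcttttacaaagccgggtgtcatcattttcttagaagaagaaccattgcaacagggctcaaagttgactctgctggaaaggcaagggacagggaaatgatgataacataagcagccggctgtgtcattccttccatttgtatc

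UNC45B encodes a myosin chaperone of striated muscle, and lies at chr17:35147817-35189345 (plus strand). It had 870, 101 and 33 counts in knockdown a, b and c, beside 14, 12 and 41 in control a, b and c. In CPM these were 31.5, 3.0 and 1.32 against 0.486, 0.383 and 1.12, again without overlap of the values. The 95% exact intervals of knockdown c (0.906 to 1.85) and control c (0.804 to 1.52) did overlap. The means were 11.9 ± 17.0 and 0.663 ± 0.40 CPM (SD, n = 3), a ratio of 18.01, or 3.25 without knockdown a. Its counts per RNA28S5 count were 0.373, 0.375 and 0.388 in the knockdown and 0.467, 0.300 and 0.436 in the control libraries. The gene overlaps AC022916.4 on the opposite strand and AC022916.2, and the strand setting of the counting is not given in the sources used here.

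AL161626.1 has no entry in GENCODE 29, and its 23 matched neighbours in the table were all on chromosome 9. It had 796, 78 and 35 counts in knockdown a, b and c, beside 14, 16 and 36 in control a, b and c. In CPM these were 28.8, 2.31 and 1.40 against 0.486, 0.510 and 0.984, without overlap of the values. The 95% exact intervals of knockdown c (0.972 to 1.94) and control c (0.689 to 1.36) did overlap. The means were 10.85 ± 15.6 and 0.660 ± 0.281 CPM (SD, n = 3), a ratio of 16.4, or 2.81 without knockdown a. Its counts per RNA28S5 count were 0.342, 0.290 and 0.412 in the knockdown and 0.467, 0.40 and 0.383 in the control libraries.

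Over the 6 libraries RNA28S5 itself varied 81.1 times in CPM, while the 3 ratios varied 1.61, 1.56 and 1.61 times. Of 19720 other rows that passed the filter, these were the only 3 (0.0152%) whose count per RNA28S5 count varied less than 2 times. Since these rows were picked for following RNA28S5, that count describes the choice. In the 5 libraries without knockdown a, 5 rows varied less than 2 times (0.0254%), and the same 3 were among them. With 12 to 41 counts per control library the intervals are wide: for UNC45B in control b the ratio of 0.300 had a 95% exact interval of 0.143 to 0.583. Within each of the 3 rows the intervals of all 6 libraries overlapped.

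**Figure D3:**
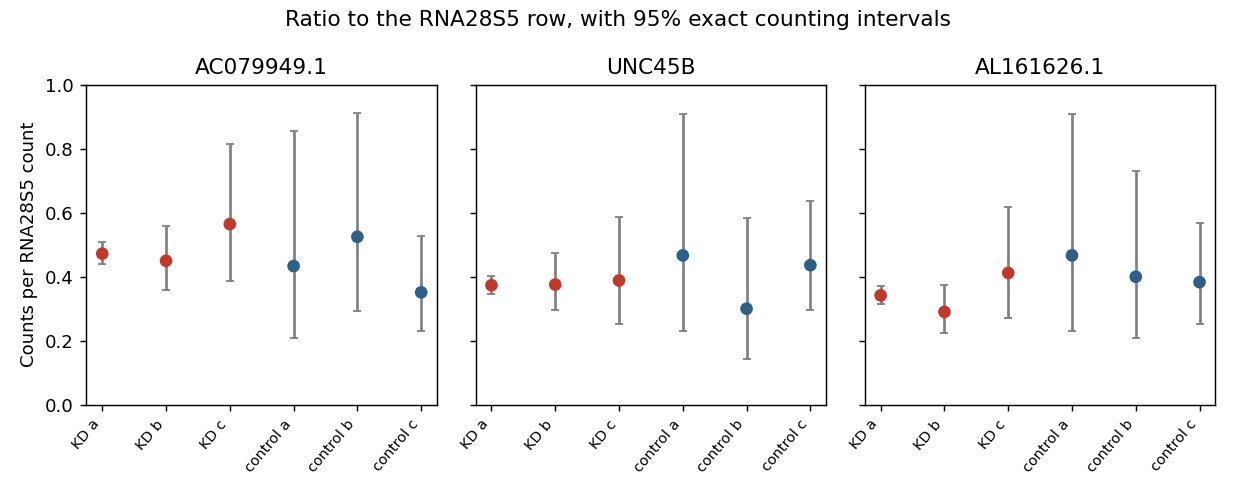
Counts per RNA28S5 count (vertical axis) of AC079949.1, UNC45B and AL161626.1 in each of the 6 libraries, with 95% exact intervals for counting error, in red for knockdown (KD) and blue for control. The points lie between 0.290 and 0.565 while RNA28S5 itself ranged from 30 to 2330 counts.

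DUSP5P1, ANKRD30BL and HFM1 followed RNA28S5 in knockdown a, but their counts per RNA28S5 count varied 6.02, 6.33 and 11.5 times over the libraries. For DUSP5P1 this ratio was 1.33, 0.425 and 0.468 in control a, b and c, beside 0.2215, 0.245 and 0.353 in knockdown a, b and c. DUSP5P1, a processed pseudogene of the phosphatase gene DUSP5, lies at chr1:228650241-228651379 (plus strand), and in the table it stands between RNA5SP19 and RNA5S1, rows named for 5S rRNA. Its CPM was 18.7, 1.96 and 1.20 in knockdown a, b and c, beside 1.39, 0.542 and 1.20 in control a, b and c. The groups overlapped, and the ratio of means was 6.97, or 1.51 without knockdown a. DUSP5 itself, the parent gene, had 13.98, 12.9 and 10.7 CPM in knockdown a, b and c, beside 9.02, 9.73 and 9.16 in the controls, with no such peak in knockdown a.

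ANKRD30BL is an ankyrin repeat gene at chr2:132147591-132257969 (minus strand). Its span holds RNU6-1132P, the 5.8S pseudogene RNA5-8SP5 and MIR663B. Its CPM was 72.0, 13.8 and 10.1 in knockdown a, b and c, beside 5.62, 4.53 and 5.0 in control a, b and c, without overlap. The means were 31.95 ± 34.7 and 5.05 ± 0.546 (SD, n = 3), a ratio of 6.33, or 2.37 without knockdown a. RNA5-8SP5 and MIR663B had 0 counts in all 6 libraries, as did FEN1P1, which is nested in HFM1. For such nested genes a 0 may reflect how overlapping genes were counted, so their reads may have been dropped or given to the longer gene. The counts per RNA28S5 count of ANKRD30BL ran from 0.853 in knockdown a to 5.40 in control a.

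HFM1 encodes a DNA helicase of meiotic recombination and lies at chr1:91260766-91404869 (minus strand). Its CPM was 277, 57.0 and 51.5 in knockdown a, b and c, beside 39.3, 42.3 and 46.2 in control a, b and c, without overlap. The means were 128.7 ± 129 and 42.6 ± 3.44 CPM (SD, n = 3), a ratio of 3.02, or 1.27 without knockdown a. When the control mean was subtracted from each knockdown library, the CPM left over per CPM of RNA28S5 left over was 2.84, 2.27 and 5.10 for HFM1 in a, b and c. It was 0.809, 1.37 and 2.88 for ANKRD30BL and 0.213, 0.144 and 0.0862 for DUSP5P1. The same measure was 0.373, 0.367 and 0.371 for UNC45B, 0.473, 0.459 and 0.704 for AC079949.1, and 0.340, 0.260 and 0.418 for AL161626.1. Of these 6 rows UNC45B varied least.

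In all, 6 of the 9 members that passed the filter had every knockdown library above every control library: RNA28S5, AC079949.1, UNC45B, AL161626.1, ANKRD30BL and HFM1. For RNA28S5, UNC45B and AL161626.1 the exact counting intervals of knockdown c and control c overlapped. None had every knockdown library below. Of all 19721 rows that passed, 13.2% were separated upward in this way. The same 6 were separated with knockdown b and c alone, as were 18.55% of all rows. In knockdown a, 7 of the 9 stood at least 2 times above the mean of the other 5 libraries, as did 5.27% of all rows. Only 7 rows stood at least 10 times above it, and 5 of them are members: AC079949.1 (26.5 times), RNA28S5 (25.95), AL161626.1 (25.3), UNC45B (25) and DUSP5P1 (14.9). The remaining pair, named after its values were seen, was TP53TG3C (19.7 times, 127 counts in knockdown a and 2 to 18 elsewhere) and AL589743.1 (13.2 times, 114 counts and 5 to 17 elsewhere). Because the members were picked on these values, nothing is read from these shares.

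Likeness to RNA28S5 was measured as Pearson's r of log2(CPM + 0.5) over the 6 libraries. It was 0.997 for UNC45B, 0.996 for AC079949.1, 0.993 for AL161626.1, 0.980 for ANKRD30BL, 0.969 for HFM1 and 0.952 for DUSP5P1. These 6 of the 8 members compared were at 0.9 or more, as were 366 of 19720 rows (1.86%). MIR3648 stood at -0.745 and MIR3687 at -0.768. Knockdown a lies far from the other 5 libraries on the RNA28S5 axis, and all values share the same libraries and totals. Without knockdown a, r was 0.988, 0.976 and 0.994 for UNC45B, AC079949.1 and AL161626.1 and 0.979 for HFM1. It was 0.880 for ANKRD30BL and 0.672 for DUSP5P1, and for MIR3648 and MIR3687 it turned to 0.120 and 0.175. The order of the 6 libraries was identical to that of RNA28S5 for AC079949.1, AL161626.1 and HFM1 (Spearman's rho 1). By the same measure UNC45B stood at 0.943, ANKRD30BL at 0.829, DUSP5P1 at 0.600 and both MIR3648 and MIR3687 at -0.371.

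**Figure D4:**
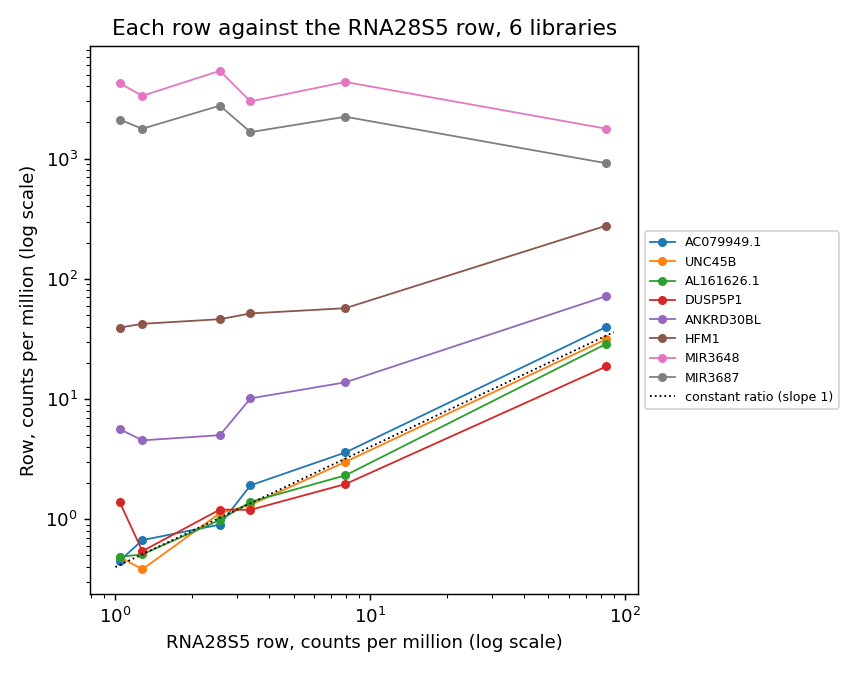
CPM of 8 members (vertical axis) against those of RNA28S5 (horizontal axis) in the 6 libraries, both on log scales, with a dotted line for a constant ratio. AC079949.1, UNC45B and AL161626.1 run along the dotted line, HFM1 and ANKRD30BL are flat among the controls, and MIR3648 and MIR3687 are lowest at the right end, knockdown a.

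The rows outside the members that were most like RNA28S5 and at least 2 times higher in knockdown a were GJA3, FAM163A, B3GNT3, ZNF285B, TAS1R1 and KCNC2. Their r ran from 0.985 to 0.989, but they had 6 to 46 counts per library and stood only 2.23 to 3.15 times above the other libraries in knockdown a. AC079949.1, UNC45B, AL161626.1 and RNA28S5 stood 25 to 26.5 times above them there. These members were picked on such values, so nothing is read from the gap.

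Rows beside the members in the table mostly did not share the peak of knockdown a. Within 5 rows on each side, and with a mean count of at least 10, the 8 neighbours of RNA28S5 stood at 0.766 to 1.40 times the mean of the other libraries. The 4 neighbours of UNC45B stood at 0.805 to 1.03, the 4 of AL161626.1 at 1.01 to 1.04, and the 5 of HFM1 at 0.931 to 1.45. There were 2 exceptions, named after their values were seen. RP11-575F12.1, the only neighbour of AC079949.1 with enough counts, stood at 3.66 times. It had 86, 43 and 18 counts in knockdown and 22, 29 and 21 in control libraries. ANKRD30BL also had only 1 such neighbour, at 1.05 times. TEKT4P2, the row after MIR3687, stood at 8.82 times, with 193, 27 and 21 counts against 21, 14 and 42. The spliced sequences of members with a GENCODE 29 entry, and of some further genes, were also compared with each other on both strands. The further genes were RNA5-8SN2, FP671120.3, MIR663B, RNA5-8SP5, MIR6087 and RNA5S1. Introns, and other genes nested in members such as FEN1P1, were not compared. Of 103 pairs, leaving out the identical microRNA copies, 1 shared a stretch of 20 bases (ANKRD30BL and UNC45B). A comparison with the 28S sequence itself was not analysed here.

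Knockdown library a stood apart in other ways. Library totals ran from 25087629 to 36576752 counts, yet 29678 rows had a count in knockdown a and 25898 to 26788 in the other 5. The blood cell marker PTPRC had 1.45 CPM there and at most 0.173 elsewhere, while the 25 markers of other cell types that have a row summed to 302 to 334 CPM in knockdown and to 339 to 376 in the controls. The pluripotency genes POU5F1 (86.9 to 150.7 CPM), NANOG (173.5 to 203) and LIN28A (1511 to 1872) were present in every library. SOX2 was listed at 0 in all 6. It lies inside the longer SOX2-OT, and how reads in overlapping genes were counted is not given, so this 0 cannot be read as absent expression. The naive marker KLF17 was at 0.0273 to 0.362 CPM (1 to 10 counts) and did not pass the filter on low counts. DPPA5, from the same list of pluripotent cell markers, was at 0.798 to 1.27 CPM (23 to 38 counts). It passed the filter, as did DPPA3 and KLF4 of that list. Whether the cells were naive is not read from these levels. The 2 mitochondrial rRNAs, made outside the nucleus, did not share the peak: MT-RNR2 had 1030, 1108 and 189.6 CPM in knockdown a, b and c, beside 1175, 1062 and 802 in the controls. Small RNAs without a poly(A) tail summed to 4304 CPM in knockdown a and 3494 to 5339 in the other libraries, and histone mRNAs of the replication type, which also lack the tail, to 4156 against 3439 to 4603. The part of any of these in the members' values was not tested.

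The genes that make, silence, mature and degrade rRNA were then examined, in 5 lists with 118 genes that passed the filter. None passed an adjusted p of 0.05 in edgeR's quasi-likelihood test, against 155 of all 19721 rows (0.786%), 27 higher (0.137%) and 128 lower (0.649%) in knockdown. Scaled by library totals alone, the split of all calls was 52 higher and 100 lower. Of the 118 genes, 14 (11.9%) had an unadjusted p under 0.05 with edgeR, beside 2810 (14.2%) of all rows. Limma-voom called 0 of them, and DESeq2 called 1 (BAZ2A), beside 530 of all rows. The smallest edgeR adjusted p was 0.153. The median log2 fold change was 0.06, beside 0.02 over all rows tested, and 79 (66.95%) were above 0, beside 54.45% of all rows.

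Among 24 genes of RNA polymerase I transcription, 16 were above 0, with a median log2 fold change of 0.09. TCOF1, the nucleolar protein treacle that aids RNA polymerase I, had 259 ± 11.25 CPM in knockdown, beside 220.5 ± 9.46 in control libraries (SD, n = 3). Its log2 fold change was 0.21 (SE 0.07, edgeR adjusted p = 0.201). POLR2E, a subunit shared by the nuclear RNA polymerases, stood at 0.22 (edgeR adjusted p = 0.240).

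Of 22 genes that act on the chromatin or activity of rRNA genes, 17 were above 0, with a median of 0.09. BAZ2A (TIP5), the subunit of the NoRC complex that silences rRNA genes, had 228.5 ± 24.7 CPM in knockdown, beside 184 ± 7.66 in control libraries (SD, n = 3). Its log2 fold change was 0.28 (SE 0.08, edgeR adjusted p = 0.153). It passed the threshold with DESeq2 (adjusted p = 0.0341), without the filter on low counts (edgeR adjusted p = 0.00994) and without knockdown c (edgeR adjusted p = 0.00813). These settings called more of all rows than the main fit: 530 of 19721, 1064 of 32300 and 1309 of 20456. Over all alternatives its adjusted p ran from 0.00813 to 0.517.

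Among 35 genes of large-subunit rRNA maturation, 30 were above 0, with a median of 0.08. RRS1, an assembly factor that helps bring the 5S particle into the large subunit, had 25.5 ± 1.63 CPM in knockdown, beside 20.55 ± 1.35 in control libraries (SD, n = 3). Its log2 fold change was 0.29 (SE 0.09, edgeR adjusted p = 0.161). EBNA1BP2, another assembly factor, stood at 0.17 (edgeR adjusted p = 0.336). Without knockdown c, NCL (named after its value was seen), the abundant nucleolar protein nucleolin, passed the threshold at 0.19 (edgeR adjusted p = 0.0439). That setting called 1309 of all 20456 rows and 3 of the 118 pathway genes, so nothing is read from this call.

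Of 17 genes of nuclear RNA decay, 5 were above 0, with a median of -0.04. EXOSC2, a subunit of the RNA exosome, stood at 0.12 (edgeR adjusted p = 0.421), and ERI1, an exonuclease that trims 5.8S rRNA, at -0.11 (edgeR adjusted p = 0.491). Of 20 genes of RNA polymerase III transcription, which makes 5S rRNA, 11 were above 0, with a median of 0.02. POLR3GL, a polymerase III subunit, had 0.779 ± 0.236 CPM in knockdown, beside 1.47 ± 0.248 in control libraries (SD, n = 3). Its log2 fold change stood at -0.93 (SE 0.33, edgeR adjusted p = 0.236). POLR3F, another subunit, stood at -0.24 (edgeR adjusted p = 0.258). The genes named here by rule from these lists had log2 fold changes between -0.93 and 0.29.

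**Figure D5:**
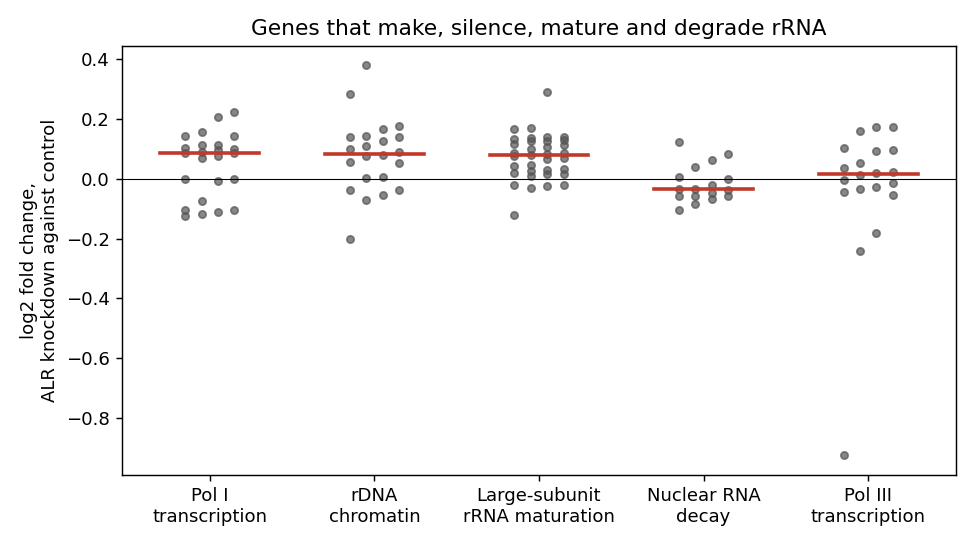
Log2 fold change of ALR knockdown against control (vertical axis, edgeR) for the 118 tested genes of 5 lists, with 1 point per gene and a red line at each list's median. The medians lie between -0.04 and 0.09, and the lowest point is POLR3GL at -0.93.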

How the data were processed

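RNA-seq was deposited as 1 table of whole-number counts per gene for 6 libraries. Per the submitters' processing notes the authors used Trimmomatic 0.39, STAR 2.7.8a, featureCounts and Subread 2.14.2 with hg38. The annotation, the strand setting and the handling of reads that match several places are not given in the sources used here, and they decide what rRNA rows can hold. Per the labels' protocols the library kit keeps strand.

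CPM used library totals. The fit across genes used edgeR 4.0.16 in R 4.3.3 (filterByExpr, TMM, quasi-likelihood test, two-sided, Benjamini-Hochberg over all 19721 rows kept). Tested on counts simulated for this comparison, with a log2 change of 1 in 200 genes, it recovered 179, with 11 false calls among 19490 rows. The simulation gave every gene the same relative spread between libraries and had no library set apart like knockdown a. Its planted change was larger than that of any pathway gene named by rule. How many smaller changes would be called was not tested. Alternatives were DESeq2 1.42.0, limma-voom (limma 3.58.1), other scalings, no filter, a replicate block and leaving out each library. Values without knockdown library a for the shares of all rows were added after seeing the data. Intervals are exact (SciPy 1.17.1).

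The members and lists were chosen with earlier results of these data known. All members are named. Other rows named are the 6 most like RNA28S5 (r of log2(CPM + 0.5)) among those at least 2 times higher in knockdown a, and up to 3 genes per list past the threshold, or the 2 with the smallest p where none passed. A gene that this rule names and a sequence are not reported here.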

Additional observations from a re-analysis of the deposited data

How the results depend on the processing

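The count of all genes called, 155 with edgeR, was 1064 without the filter on low counts, 530 with DESeq2's Wald test and 388 with the replicate block, and 26 to 1309 when a library was left out. The count of the 118 rRNA pathway genes, 0, was 1 without the filter, 1 with DESeq2 and 0 to 3 when a library was left out. It stayed 0 with the replicate block. The block called 2 of the 50 replication-dependent histone genes, where edgeR without it called 0. Same-letter libraries correlated at 2.14e-05, 0.116 and -0.0251 in their deviations from the group means, and 1 of 3 knockdown libraries correlated best with its own letter, so the letters were not taken as pairs. Rows with r of at least 0.9 to RNA28S5, 366 in all, numbered 666 without knockdown a and 213 at a mean count of at least 50. The rows in near-constant ratio to RNA28S5 were 3, and 5 without knockdown a. Without it the r of MIR3648 and MIR3687 turned from negative to 0.120 and 0.175. The difference in RNA28S5 CPM, 30.29, was 29.5 with TMM and 29.55 with DESeq2 size factors, and 4.06 to 44.55 when a library was left out. The cause of each change was not tested. Depth limits the control values of RNA28S5 and the 3 rows in near-constant ratio to it, at 12 to 94 counts.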

Other observations

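The replication-dependent histone genes, which encode the histones made in S phase, were read as a further list of RNAs without a poly(A) tail. Of 50 tested, 49 were above 0, with a median log2 fold change of 0.18 beside 0.02 over all rows tested. None passed an adjusted p of 0.05 with edgeR, where 21 (42%) had an unadjusted p under 0.05, beside 14.2% of all rows. Other settings called some, all higher in knockdown: 13 with edgeR without the filter on low counts (3.29% of all rows were called there), 7 with DESeq2 (2.69%), 2 with the replicate block (1.97%), 1 with library size alone (0.771%) and 1 with limma-voom (0.882%). Leaving out 1 library gave 5 calls without knockdown c, where 1309 of all 20456 rows were called. It gave 0 for each of the others, and DESeq2 size factors gave 0. Their summed CPM was 4156, 4603 and 4196 in knockdown a, b and c, beside 3986, 3614 and 3439 in control a, b and c, so the groups did not overlap. Unlike RNA28S5, the sum was highest in knockdown b, not in a. MT-RNR1, the small mitochondrial rRNA, had 57.4 CPM in knockdown c and 281 to 456 in the other 5 libraries.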
